A study of Homo sapiens with 4 samples.

Results

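Keratins are the intermediate filament proteins of epithelial cells, and 10 of their genes were followed here in bladder cancer cells treated with OICR-9429, a small molecule that blocks the binding of the WD repeat protein WDR5 to the histone methyltransferase MLL1. The genes were taken by name from tables of 31319 genes: KRT7, KRT8, KRT18, KRT19, KRT80, KRT81, KRT5, KRT14, KRT17 and KRT20. T24 and UM-UC-3, both established human bladder cancer cell lines, were kept for 48 h in 140 µM OICR-9429 or in DMSO, the solvent. RNA sequencing gave 4 libraries, 1 per line and condition: T24 with OICR-9429, T24 with DMSO, UM-UC-3 with OICR-9429 and UM-UC-3 with DMSO. T24 was grown in RPMI-1640 and UM-UC-3 in DMEM, so the line and the medium cannot be told apart. The labels give the dose as 140 µM, but the column headings in the tables of the treated cells carry a 125 that no source used here explains. All 10 genes had an entry in the tables. Of these, 4 reached 1 FPKM (fragments per kilobase of exon, scaled to the library's total) in at least 1 library, and 6 were above 0 in all 4 libraries.

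A keratin filament is built from equal parts of a type I and a type II keratin, so each cell type uses characteristic pairs. KRT8 (type II) and KRT18 (type I) form the pair of simple epithelia, and KRT7 (type II) and KRT19 (type I) accompany them in ductal and urothelial cells. In the urothelium KRT5 (type II), KRT14 and KRT17 (both type I) mark the basal cells, and KRT20 (type I) marks the umbrella cells of the surface. KRT80 is a type II keratin of many epithelia, and KRT81 is a type II keratin of hair.

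In GENCODE 29 (build GRCh38) the type II genes and KRT18 lie on chromosome 12, and the other type I genes lie on chromosome 17. KRT80 runs from 52168996 to 52192000 on the minus strand, and KRT7 from 52232520 to 52252186 on the plus strand. KRT81 (52285913 to 52291534, minus strand) lies inside the span of KRT86 (52249300 to 52309163, plus strand), another hair keratin, without a shared exonic base. KRT8 (52897187 to 52949954, minus strand) and KRT18 (52948871 to 52952901, plus strand) overlap head to head. They share 525 exonic bases, which make up 7.63% of the merged exons of KRT8 and 16.3% of those of KRT18. Whether reads were counted by strand is not given in the sources used here, so reads from these bases could belong to either gene. KRT5 (52514575 to 52520687, minus strand) completes the members on chromosome 12. On chromosome 17, all on the minus strand, lie KRT20 (40875941 to 40885227), KRT19 (41523617 to 41528308), KRT14 (41582279 to 41586921) and KRT17 (41619441 to 41624842).

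The beginning of the coding sequence of KRT18, 90 bases from the start codon as GENCODE 29 gives them, is shown as that of a member with a high level in both lines. It lies at chr12:52949174-52949263 (plus strand) inside 1 exon, and capitals mark the start codon.
KRT18: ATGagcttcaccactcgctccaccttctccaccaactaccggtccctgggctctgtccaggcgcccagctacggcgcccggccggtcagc

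KRT8 and KRT18 pair as proteins but are far apart in sequence: their coding sequences had 680 identical bases among 1276 aligned ones (53.3%). KRT80 had no stretch of 150 or of 75 bases in common with a transcript of another gene, so its reads are the least open to sharing among the abundant members. Of the 75-base stretches of the main KRT8 transcript, 384 of 2052 (18.7%) also occurred in transcripts of 13 other genes, most often in the pseudogene KRT8P3, whereas no 150-base stretch did. Of the 150-base stretches of the main KRT18 transcript, 155 of 1413 (11.0%) occurred in KRT8 transcripts, and 0 in those of any other gene.

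Among the members and KRT10, KRT15 and KRT86, the closest pair was KRT81 and its neighbour KRT86, with 1361 identical bases among 1454 aligned coding bases (93.6%). Identical 150-base stretches made up 456 of 1780 in KRT81 (25.6%), and all of them were shared with KRT86. The KRT81 values below are uncertain for this reason.

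Depth was alike in the 4 libraries. The deposited FPKM values corresponded to totals of 28209432 to 29335051 reads, and 11387 to 12115 genes per library had at least 1 FPKM. Reads per gene could be worked back from the FPKM values, and the 95% intervals given here are exact intervals on those reads, which cover counting error only. Fold changes are the log2 ratio of OICR-9429 to DMSO after 0.5 was added to each FPKM, so that those of low genes come out too small. A call (lower or higher) needed a difference of 2-fold or more and 1 FPKM or more in either library of the line. With 1 library per condition this is a rule of size without a test. The median log2 fold change over the genes at this level was -0.15 in T24 cells and 0.09 in UM-UC-3 cells, and the members' changes relative to it are given below. In RNA from whole cultures, fewer cells of a kind and less RNA per cell cannot be told apart.

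In T24, 3 of the 4 members that reached 1 FPKM were called lower in OICR-9429 (KRT7, KRT8 and KRT80) and 0 were called higher. KRT7 reached it only in DMSO (2.46 FPKM, against 0.583 FPKM in OICR-9429), so it could not have been called higher. Among all 12638 genes at this level in T24, 13.5% were called lower and 6.93% higher. In UM-UC-3, all 3 members that reached 1 FPKM were called lower (KRT8, KRT18 and KRT80) and 0 were called higher, against 12.1% lower and 14.0% higher among 13086 genes. KRT8 and KRT80 were thus lower in both lines, as were 6.32% of the 11178 genes at this level in both, while 2.67% were higher in both. The members were chosen with earlier results of these data known, so setting them beside all genes is not an independent comparison. For the change common to both lines, limma was fitted to log2(FPKM + 0.5) of 12584 genes with the cell line as a term. KRT8 and KRT80 fell in this test and KRT18 did not pass it, while the other 7 members were too low to be tested. In the same test 3.11% of all genes fell and 0.811% rose. The 2 lines are the only replication behind these p-values. The labels do not say that the libraries stand for separate cultures.

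**Figure D1:**
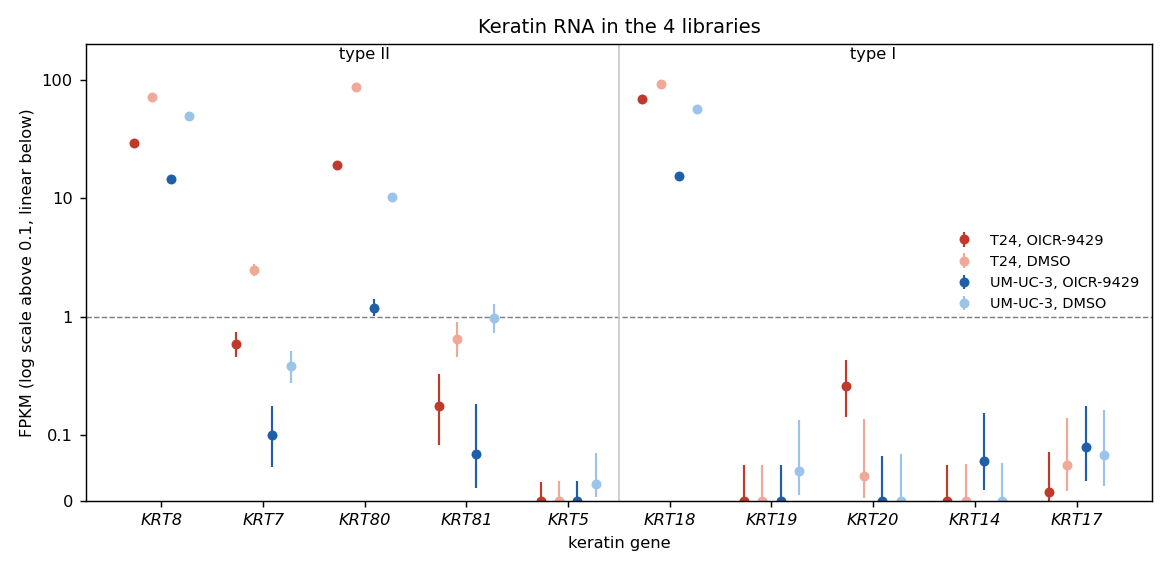
FPKM of the 10 keratin genes in the 4 libraries, type II genes left and type I genes right, on an axis that is logarithmic above 0.1 and linear below. Points are single libraries, bars are 95% exact Poisson intervals for counting error, and the dashed line marks 1 FPKM. KRT8, KRT18 and KRT80 lie at 1.19 to 91.3 FPKM, and in each of them the OICR-9429 library lies below the DMSO library of its line.

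KRT80 was the abundant member with the lowest ratio of treated to control cells. Its level in T24 was 19.1 FPKM in OICR-9429, against 87.4 FPKM in DMSO (2435 and 10969 reads). The ratio in T24 was 0.218 (95% interval 0.209 to 0.228), a level 4.58-fold lower. In UM-UC-3 it had 1.19 FPKM in OICR-9429, against 10.2 FPKM in DMSO (151 and 1253 reads), a ratio of 0.116 (0.0977 to 0.138) and a level 8.58-fold lower. The treated library was the lower one in each line, but across the lines the conditions overlapped, since treated T24 cells had more KRT80 RNA than UM-UC-3 cells in DMSO. On the log2 scale the T24 change was -2.17 and the UM-UC-3 change -2.66, or -2.02 and -2.76 relative to the median gene. Only 341 of 12638 genes in T24 (2.70%) and 204 of 13086 in UM-UC-3 (1.56%) had a lower fold change than KRT80. Over both lines the log2 fold change was -2.42 ± 0.28 (SE), with an adjusted p of 0.012 in limma (Benjamini-Hochberg, lower in 2 of 2 lines).

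KRT8, the type II partner of the simple epithelial pair, was also lower in both lines. T24 cells had 28.9 FPKM in OICR-9429 and 71.5 FPKM in DMSO (5839 and 14200 reads), a ratio of 0.405 (0.392 to 0.417). UM-UC-3 cells had 14.6 FPKM in OICR-9429 and 49.6 FPKM in DMSO (2923 and 9635 reads), a ratio of 0.293 (0.281 to 0.306). Both treated libraries lay below both DMSO libraries. The log2 fold change was -1.29 for T24 and -1.74 for UM-UC-3, or -1.14 and -1.83 relative to the median gene. Over both lines KRT8 fell by 1.51 ± 0.24 (SE) on the log2 scale, with a limma adjusted p of 0.033. KRT8 did not pass without a trend in eBayes (limma adjusted p = 0.075). Neither KRT8 nor KRT80 passed without a filter on low values (adjusted p = 0.45 for KRT8 and 0.29 for KRT80, limma) or without the cell line as a term (0.48 for KRT8 and 0.78 for KRT80).

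KRT18, the type I partner, had the highest FPKM of the members in all 4 libraries with the merged exon lengths behind the deposited values. It had 68.4 FPKM in T24 cells in OICR-9429 and 91.3 FPKM in T24 cells in DMSO (6460 and 8483 reads). The ratio of 0.749 (0.725 to 0.774) was below the size of a call, with a log2 fold change of -0.41, or -0.27 relative to the median gene. In UM-UC-3 it had 15.3 FPKM in OICR-9429 and 56.5 FPKM in DMSO (1439 and 5128 reads), a ratio of 0.271 (0.256 to 0.288), with a change of -1.85 on the log2 scale. Across the lines the conditions overlapped, treated T24 cells being above UM-UC-3 cells in DMSO. Over both lines KRT18 had a log2 fold change of -1.13 ± 0.37 (SE) and an adjusted p of 0.16 in limma (unadjusted p = 0.024), which did not pass. The larger change in UM-UC-3 than in T24 has no replicate check, so the difference between the lines was not tested.

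KRT7, a type II keratin of ductal and transitional epithelia, was low in T24 and lower still in UM-UC-3. T24 cells had 0.583 FPKM in OICR-9429, against 2.46 FPKM in DMSO (70 and 291 reads), a ratio of 0.237 (0.180 to 0.308) that was called lower. UM-UC-3 cells had 0.1005 FPKM in OICR-9429 and 0.381 FPKM in DMSO (12 and 44 reads), a ratio of 0.264 (0.127 to 0.508). The ratios of the lines overlapped within their counting intervals, but the UM-UC-3 levels were too low for a call. KRT7 shares 282 of its exonic bases with KRT7-AS on the opposite strand, 6.89% of its merged exons. KRT19, the type I keratin that accompanies KRT7 in many ductal epithelia, had 0 reads in 3 libraries and 3 reads in UM-UC-3 in DMSO. At this depth 3 reads correspond to 0.0438 to 0.0455 FPKM, so any KRT19 RNA was near or under that level.

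**Figure D2:**
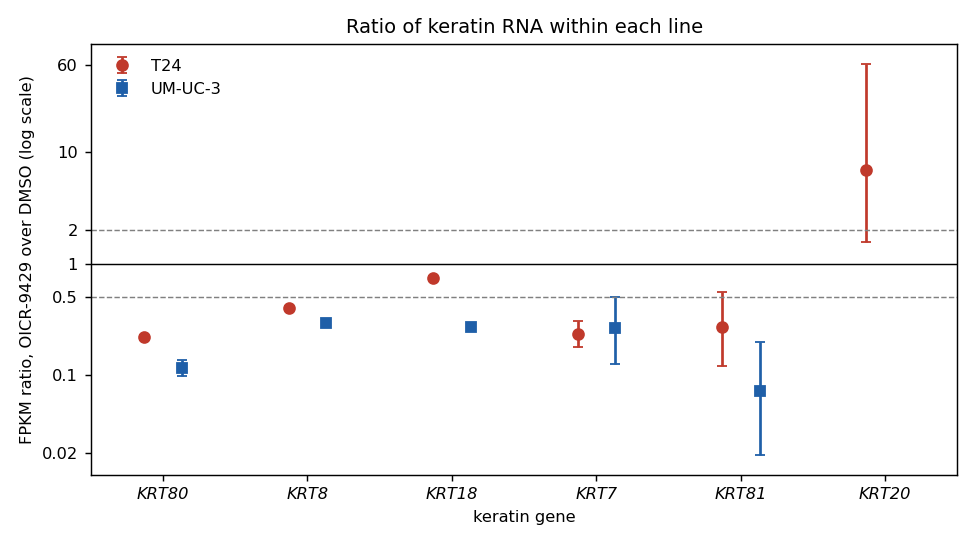
Ratio of FPKM in OICR-9429 to FPKM in DMSO within T24 (circles) and UM-UC-3 (squares), on a logarithmic axis, for members with at least 10 reads in a library of the line. Bars are 95% exact intervals for counting error, and dashed lines mark a 2-fold difference. The ratio of KRT18 was 0.749 in T24 cells and 0.271 in UM-UC-3 cells, while those of KRT80 and KRT8 lay under 0.5 in both lines and that of KRT20 in T24 lay above 1.

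KRT81, the hair keratin, stayed under 1 FPKM in every library. It had 0.177 FPKM in T24 cells in OICR-9429 and 0.647 FPKM in T24 cells in DMSO (10 and 36 reads), a ratio of 0.273 (0.121 to 0.562). In UM-UC-3 it had 0.0711 FPKM in OICR-9429 and 0.974 FPKM in DMSO (4 and 53 reads), a ratio of 0.0729 (0.0192 to 0.198). Both intervals lay below a ratio of 1, but no call was made at this level. KRT86, which can share reads with it, had 0.185 FPKM in OICR-9429 and 1.27 FPKM in DMSO in T24 (13 and 88 reads), and 0.0716 FPKM in OICR-9429 and 0.148 FPKM in DMSO in UM-UC-3 (5 and 10 reads).

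The basal keratins KRT5, KRT14 and KRT17 were at the limit of detection. KRT5 had 0 reads in 3 libraries and 3 reads in UM-UC-3 in DMSO. Its usual partner KRT14 had 4 reads in UM-UC-3 in OICR-9429 and 0 reads in the other 3 libraries. KRT17, a keratin of basal and stress-activated epithelia, had 0.0134 FPKM in OICR-9429 and 0.0546 FPKM in DMSO in T24, and 0.0810 FPKM in OICR-9429 and 0.0699 FPKM in DMSO in UM-UC-3, which correspond to as few as 1 to 6 reads. For these 3 genes no difference was detectable at this depth in either line.

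KRT20, the keratin of umbrella cells, was the only member with more reads in OICR-9429 in T24. It had 0.259 FPKM in OICR-9429 and 0.0375 FPKM in DMSO (14 and 2 reads), a ratio of 6.89 with a wide interval of 1.58 to 62.4. In UM-UC-3 it had 0 reads in either condition, which allows up to 0.0557 FPKM in OICR-9429 and 0.0576 FPKM in DMSO at a floor of 3 reads. Its levels were too low for a call. The uroplakins are membrane proteins of the same surface cells. In T24 UPK1B, the most abundant of them in DMSO, had 0 reads in OICR-9429 and 0.810 FPKM in DMSO (53 reads), opposite in direction to KRT20. The summed level of the 4 uroplakin genes in the tables was 0.0384 FPKM in OICR-9429 and 1.36 FPKM in DMSO in T24, and 0.328 FPKM in OICR-9429 and 0.0912 FPKM in DMSO in UM-UC-3.

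Set against each other, the lines differed most in KRT80 among the 4 members that reached 1 FPKM. Among the OICR-9429 libraries T24 had 16.04 times the KRT80 level of UM-UC-3 (95% counting interval 13.6 to 19.0), and among the DMSO libraries 8.56 times (8.07 to 9.08). For KRT18 the ratio of T24 to UM-UC-3 was 4.47 (4.22 to 4.73) in OICR-9429 and 1.62 (1.56 to 1.67) in DMSO. For KRT8 it was 1.99 (1.90 to 2.08) in OICR-9429 and 1.44 (1.40 to 1.48) in DMSO. For KRT7 it was 5.80 (3.12 to 11.8) in OICR-9429 and 6.46 (4.70 to 9.09) in DMSO, so the intervals of that gene overlapped. Each value compares single libraries. The order of levels was KRT18, KRT8, KRT80 and KRT7 in 3 libraries. In T24 in DMSO KRT80 came before KRT8 with merged exon lengths, whereas with the lengths of the main transcripts, an alternative chosen after seeing the data, KRT8 was at 231 FPKM, KRT18 at 188 FPKM and KRT80 at 98.5 FPKM there. With merged exon lengths the counting intervals of the neighbours KRT18 (89.4 to 93.3 FPKM) and KRT80 (85.7 to 89.0 FPKM) lay close together without overlapping. In UM-UC-3 in OICR-9429 those of KRT18 (14.5 to 16.1 FPKM) and KRT8 (14.0 to 15.1 FPKM) overlapped, so these neighbours did not differ beyond counting error. In T24 in DMSO KRT18, KRT80 and KRT8 ranked 344th, 367th and 492nd of all 31319 genes there. In UM-UC-3 in DMSO KRT18 ranked 721st, KRT8 844th and KRT80 4518th. In OICR-9429, KRT80 ranked 2353rd in T24 and 11616th in UM-UC-3.

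Summed over the members, keratin RNA was lower in both treated libraries, with a smaller share of KRT80 in each. The 10 members summed to 117 FPKM in OICR-9429 and 253 FPKM in DMSO in T24 (2.16-fold lower), and to 31.4 FPKM in OICR-9429 and 118 FPKM in DMSO in UM-UC-3 (3.76-fold lower). All keratin genes in the tables summed to 125 FPKM in OICR-9429 and 260.0 FPKM in DMSO in T24 (2.09-fold lower), and to 53.3 FPKM in OICR-9429 and 123 FPKM in DMSO in UM-UC-3 (2.32-fold lower). In T24, KRT80 made up 16.2% of the members' sum in OICR-9429 and 34.5% in DMSO, and KRT18 made up 58.3% in OICR-9429 and 36.0% in DMSO. In UM-UC-3 the share of KRT18 was 48.8% in OICR-9429 and 47.9% in DMSO, and that of KRT80 was 3.79% in OICR-9429 and 8.67% in DMSO. With the main transcripts' lengths the KRT80 share was 8.34% in OICR-9429 and 18.8% in DMSO in T24, and 1.66% in OICR-9429 and 3.96% in DMSO in UM-UC-3. The sum of type II members over that of type I members was 0.710 in OICR-9429 and 1.77 in DMSO in T24, and 1.03 in OICR-9429 and 1.08 in DMSO in UM-UC-3.

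The KRT8 to KRT18 ratio showed the same contrast between the lines. It was 0.423 in OICR-9429 and 0.783 in DMSO in T24, a log2 change of -0.89 ± 0.03 (SE, counting error only), against 0.95 in OICR-9429 and 0.879 in DMSO in UM-UC-3, a log2 change of 0.11 ± 0.05. These levels rest on merged exon lengths, 6881 bases for KRT8 and 3218 for KRT18, which are longer than the main transcripts (2126 and 1562 bases). With the main transcripts' lengths the KRT8 to KRT18 ratio was 0.664 in OICR-9429 and 1.23 in DMSO in T24, and 1.49 in OICR-9429 and 1.38 in DMSO in UM-UC-3. The order of the pair in abundance thus depends on the length used, except in T24 in OICR-9429, where KRT18 was above KRT8 with either. The change of the KRT8 to KRT18 ratio within a line does not depend on it. The type II to type I ratio with these lengths was 0.826 in OICR-9429 and 1.79 in DMSO in T24, and 1.53 in OICR-9429 and 1.49 in DMSO in UM-UC-3, where the direction turned.

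**Figure D3:**
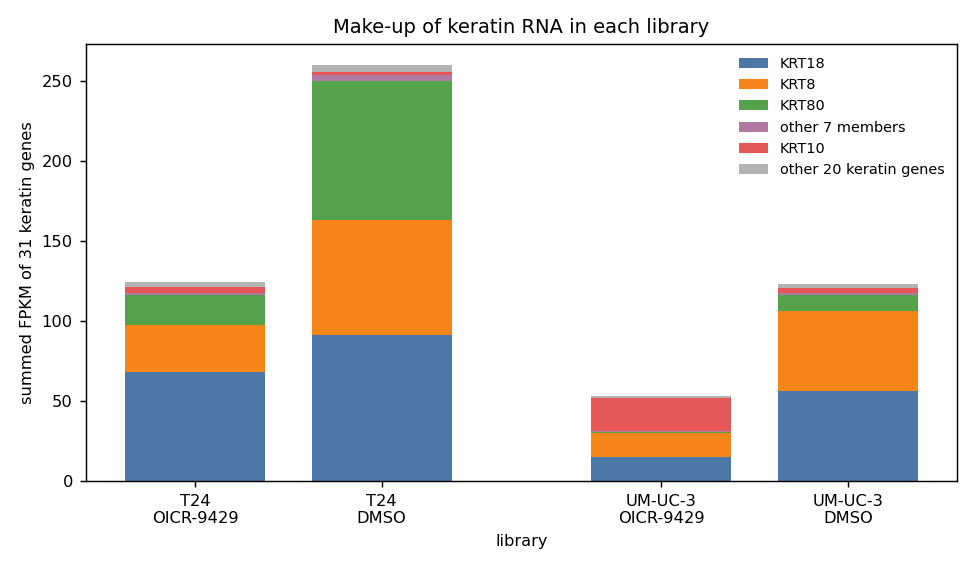
Stacked FPKM of the 31 keratin genes in the tables for each library, with OICR-9429 left of DMSO in each line. The members' sum is 117 against 253 FPKM in T24 and 31.4 against 118 FPKM in UM-UC-3, and KRT10 is at 20.8 FPKM in UM-UC-3 in OICR-9429 and at most 4.09 FPKM in the other libraries.

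Of the 21 keratin genes in the tables that are not members, 3 reached 1 FPKM in a library. KRT10, a type I keratin of differentiating epidermal cells, was the only keratin gene called higher in either line. It had 20.8 FPKM in OICR-9429 and 2.79 FPKM in DMSO in UM-UC-3 (1300 and 169 reads), a log2 fold change of 2.69, and was called higher. In T24 it had 4.09 FPKM in OICR-9429 and 2.39 FPKM in DMSO, a log2 fold change of 0.67 that was not called. Over both lines KRT10 did not pass (log2 fold change 1.68 ± 0.53 SE, limma adjusted p = 0.15). The members' share of all keratin FPKM was 58.9% in OICR-9429 and 95.5% in DMSO in UM-UC-3, and 94.2% in OICR-9429 and 97.5% in DMSO in T24. KRT15, a type I keratin of basal cells, had 0.207 FPKM in OICR-9429 and 1.69 FPKM in DMSO in UM-UC-3 and was called lower there, while T24 had 1.59 FPKM in OICR-9429 and 2.04 FPKM in DMSO. KRT86 was called lower in T24 only, with the values given above.

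KRT8 and KRT18 have many processed pseudogenes, copies of their RNA inserted elsewhere in the genome, to which reads can be assigned. The tables held 18 pseudogenes of KRT8 and 16 of KRT18. Those of KRT8 summed to 6.37 FPKM in OICR-9429 and 4.26 FPKM in DMSO in T24, and to 6.65 FPKM in OICR-9429 and 6.38 FPKM in DMSO in UM-UC-3, so their sum was not lower where KRT8 was. Added to KRT8 as FPKM, they gave a log2 fold change of -1.09 for T24 and -1.38 for UM-UC-3, still of the size of a call, and a limma adjusted p of 0.0497. In this sum a read of a short pseudogene weighs more than a KRT8 read. The merged exons of KRT8P46 have 1426 bases and those of KRT8P12 2047, against 6881 for KRT8. Summed reads were not compared. The pseudogenes of KRT18 summed to at most 1.15 FPKM in any library, little beside KRT18 itself. Of 43 keratin pseudogenes in the tables, 4 reached 1 FPKM. KRT8P46 had 3.66 FPKM in OICR-9429 and 0.510 FPKM in DMSO in T24 (153 and 21 reads) and was called higher, as was KRT8P33 in UM-UC-3 with 2.0 FPKM in OICR-9429 and 0.473 FPKM in DMSO (83 and 19 reads). KRT8P12 and KRT87P were not called in either line, and KRT87P was too low for a call in UM-UC-3 (0.135 FPKM in OICR-9429 and 0.618 FPKM in DMSO).

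Genes of the junctions that anchor keratin filaments were called lower or not called, and 0 were called higher in either line. Of 22 desmosome and hemidesmosome genes, 20 were in the tables. In T24, 13 reached 1 FPKM, of which 1 was called lower and 0 higher, with a median log2 fold change of -0.22 against -0.15 over all genes. For comparison, the rule picked 13.5% of all T24 genes at this level as lower, and 6.93% as higher. In UM-UC-3, 10 reached 1 FPKM, of which 4 were called lower and 0 higher, with a median of -0.97 against 0.09. Over all UM-UC-3 genes the rule picked 12.1% as lower, and 14.0% as higher. Whether the counts of these short lists differ from such shares was not tested. LAMB3, a chain of the laminin that hemidesmosomes bind, was called lower in both lines. It had 30.8 FPKM in OICR-9429 and 121 FPKM in DMSO in T24, and 0.866 FPKM in OICR-9429 and 3.52 FPKM in DMSO in UM-UC-3. LAMB3 was the only gene of the list that fell in limma (-1.75 ± 0.27 SE, adjusted p = 0.032) among 14 tested. Of all genes in that test, 3.11% fell. COL17A1, the hemidesmosomal collagen, had 0.242 FPKM in OICR-9429 and 6.20 FPKM in DMSO in UM-UC-3, the largest change of the list there. In UM-UC-3, LAMB3 and COL17A1 reached 1 FPKM only in DMSO, so they could not have been called higher.

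PKP3 (plakophilin 3), a desmosomal plaque protein, and ITGA6 were the other junction genes called lower in UM-UC-3. PKP3 had 1.24 FPKM in OICR-9429 and 5.42 FPKM in DMSO there. ITGA6, the integrin alpha 6 chain, had 42.2 FPKM in OICR-9429 and 84.5 FPKM in DMSO in T24, just under the size of a call, and 2.19 FPKM in OICR-9429 and 6.84 FPKM in DMSO in UM-UC-3 (limma adjusted p = 0.069 over both lines). CD151, a tetraspanin that binds integrins, had 33.8 FPKM in OICR-9429 and 65.6 FPKM in DMSO in T24, and 23.0 FPKM in OICR-9429 and 46.1 FPKM in DMSO in UM-UC-3, not called in either line. PLEC (plectin), which links keratins to hemidesmosomes, had 59.98 FPKM in OICR-9429 and 59.85 FPKM in DMSO in T24, and 120.03 FPKM in OICR-9429 and 157 FPKM in DMSO in UM-UC-3. JUP (plakoglobin), of the same plaque as PKP3, had 52.9 FPKM in OICR-9429 and 52.1 FPKM in DMSO in T24, and 0.104 FPKM in OICR-9429 and 0.2295 FPKM in DMSO in UM-UC-3. PERP, a desmosomal membrane protein, had 66.9 FPKM in OICR-9429 and 37.0 FPKM in DMSO in T24, a log2 fold change of 0.85, and 21.0 FPKM in OICR-9429 and 28.8 FPKM in DMSO in UM-UC-3.

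Among 11 keratin-binding and keratin-organizing genes, 1 of the 10 that reached 1 FPKM in T24 was called lower and 0 higher, and 0 of the 6 in UM-UC-3 were called. The median log2 fold change was -0.16 in each line, against medians over all genes of -0.15 for T24 and 0.09 for UM-UC-3. The 1 listed gene called was SFN, which encodes the 14-3-3 sigma protein that binds phosphorylated keratins. It had 27.3 FPKM in OICR-9429 and 80.5 FPKM in DMSO in T24. In UM-UC-3 SFN had 0.0519 FPKM in OICR-9429 and 0.403 FPKM in DMSO. YWHAZ, another 14-3-3 gene, had 112 FPKM in OICR-9429 and 165 FPKM in DMSO in T24, and 77.9 FPKM in OICR-9429 and 132 FPKM in DMSO in UM-UC-3, which is below the size of a call. PNN (pinin), CSNK1A1, DNAJB6 and PPL (periplakin) were not called in either line, with log2 fold changes between -0.58 (PNN, T24) and 0.67 (CSNK1A1, UM-UC-3). PPL was too low for a call in UM-UC-3, with 0.0312 FPKM in OICR-9429 and 0.0184 FPKM in DMSO. The smallest p of the 10 genes tested over both lines was that of SFN, which did not pass (limma adjusted p = 0.15, unadjusted p = 0.021).

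Among the other intermediate filament genes, those of the B-type nuclear lamins fell. Of 15 genes, 10 were in the tables and 5 reached 1 FPKM. LMNB1, which encodes the nuclear lamin B1, had 6.62 FPKM in OICR-9429 and 59.0 FPKM in DMSO in T24, and 2.76 FPKM in OICR-9429 and 54.2 FPKM in DMSO in UM-UC-3. It fell in limma (-3.56 ± 0.32 SE, adjusted p = 0.0073), as did LMNB2 (-1.81 ± 0.24 SE, adjusted p = 0.019). LMNB2 had 32.9 FPKM in OICR-9429 and 100.4 FPKM in DMSO in T24, and 23.4 FPKM in OICR-9429 and 96.6 FPKM in DMSO in UM-UC-3. LMNA, the gene of lamins A and C, had 60.6 FPKM in OICR-9429 and 88.9 FPKM in DMSO in T24, and 31 FPKM in OICR-9429 and 80.1 FPKM in DMSO in UM-UC-3, a difference called lower in UM-UC-3. VIM (vimentin), the intermediate filament of mesenchymal cells, differed in direction between the lines: 81.1 FPKM in OICR-9429 and 40.4 FPKM in DMSO in T24, just under the size of a call, against 79.3 FPKM in OICR-9429 and 183 FPKM in DMSO in UM-UC-3, which was called lower. The members' sum over VIM was 1.45 in OICR-9429 and 6.27 in DMSO in T24, and 0.396 in OICR-9429 and 0.645 in DMSO in UM-UC-3. SYNM (synemin) had 1.21 FPKM in OICR-9429 and 0.607 FPKM in DMSO in T24, and 0.311 FPKM in OICR-9429 and 0.680 FPKM in DMSO in UM-UC-3.

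Transcription factors known to act on epithelial genes, keratins among them, were called in both directions. Of 24, 23 were in the tables. In T24, 13 reached 1 FPKM, of which 3 were called higher (KLF4, PPARG and RARA) and 1 lower (RARG), and the median change was 0.38 on the log2 scale, against -0.15 over all genes. In UM-UC-3, 12 reached it, of which 2 were called higher (KLF4 and PPARG) and 1 lower (SNAI1), with a median of -0.22 against 0.09. Among all genes, 6.93% were called higher and 13.5% lower in T24, and 14.0% higher and 12.1% lower in UM-UC-3. KLF4, a factor of epithelial differentiation, had 14.4 FPKM in OICR-9429 and 3.65 FPKM in DMSO in T24, and 41.5 FPKM in OICR-9429 and 6.79 FPKM in DMSO in UM-UC-3, and it rose in limma (2.18 ± 0.30 SE, adjusted p = 0.023). PPARG, a nuclear receptor of urothelial differentiation, had 6.93 FPKM in OICR-9429 and 3.12 FPKM in DMSO in T24, and 5.86 FPKM in OICR-9429 and 1.55 FPKM in DMSO in UM-UC-3 and did not pass (limma adjusted p = 0.11). ETS1, SP1, ETS2, TFAP2C and ZEB1, the most abundant of the others, were not called in either line. TFAP2C was too low for a call in UM-UC-3, with 0.0342 FPKM in OICR-9429 and 0.224 FPKM in DMSO.

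**Figure D4:**
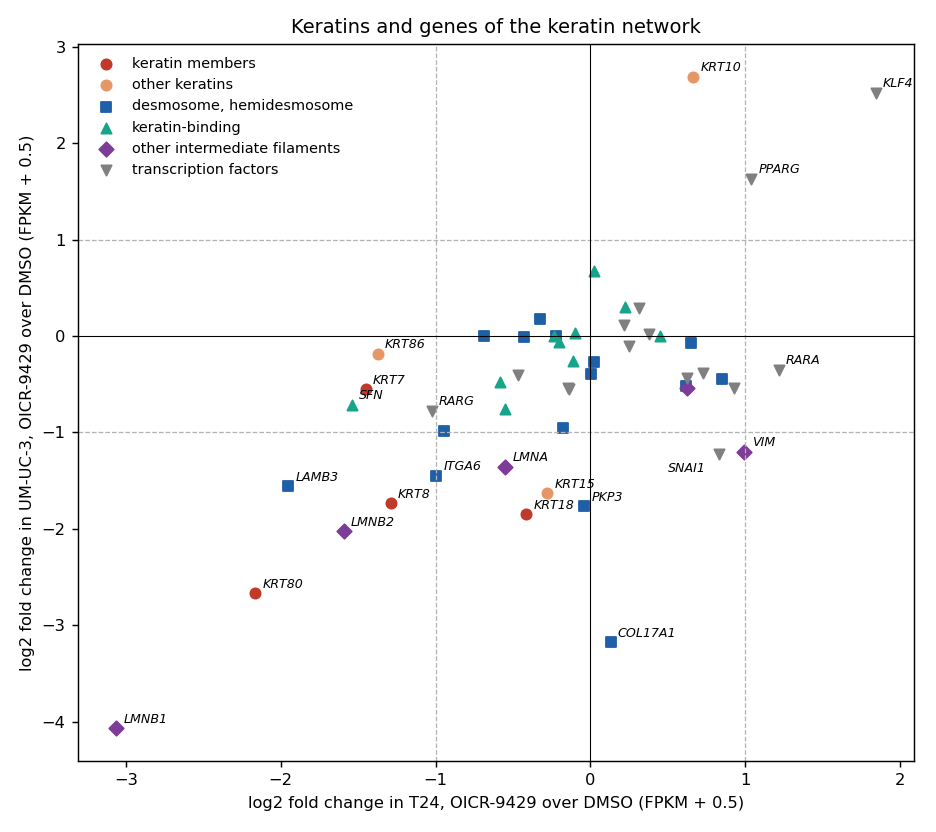
Log2 fold change (FPKM + 0.5, OICR-9429 over DMSO) in T24 on the horizontal axis and in UM-UC-3 on the vertical axis, for keratins and genes of the listed groups with at least 1 FPKM in a library. Dashed lines mark a 2-fold difference, and genes past it in a line are named. KRT8, KRT80, LAMB3, LMNB1 and LMNB2 lie past it on the lower side in both lines, KLF4 and PPARG on the upper side in both.

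As a check on the cell type, both lines expressed KRT8 and KRT18, but a further defining gene of epithelial cells, CDH1 (E-cadherin), was at 0 to 0.0222 FPKM in the 4 libraries. EPCAM, the other epithelial gene looked up, was not found in the tables. All 4 mesenchymal genes examined (VIM, CDH2, FN1 and ZEB1) reached 1 FPKM in both lines, and their summed level was 100.4 FPKM in OICR-9429 and 60.8 FPKM in DMSO in T24, and 106 FPKM in OICR-9429 and 220.1 FPKM in DMSO in UM-UC-3. FN1 was called higher in T24 (log2 fold change 1.19, against -0.79 in UM-UC-3), and VIM and CDH2 were called lower in UM-UC-3. Their part in the keratin results was not tested. Markers of immune, endothelial and fibroblast cells (9 genes in the tables) each stayed under 1 FPKM, with summed levels of at most 0.327 FPKM per group of markers and library. Of 19 squamous differentiation genes, 9 were in the tables and 1, PI3, reached 1 FPKM, with 0.9501 FPKM in OICR-9429 and 1.29 FPKM in DMSO in UM-UC-3.

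Genes whose pattern over the 4 libraries was most like that of a member were sought among the 12584 genes tested, by the root mean square distance of log2(FPKM + 0.5) after each gene's mean was removed. This is a description over 4 libraries. Likeness of pattern says nothing of shared control. Nearest to KRT8 were APOBEC3C (distance 0.063) and the transcript RP11-148B18.4 (0.064). Nearest to KRT18 were CD109 (0.080) and HFE (0.10), and for KRT80, added after its values were seen, NUAK2 (0.29) and PKN3 (0.40). NUAK2, a kinase of the AMPK family, had 15.9 FPKM in OICR-9429 and 54.7 FPKM in DMSO in T24, and 0.727 FPKM in OICR-9429 and 4.68 FPKM in DMSO in UM-UC-3. KRT18 was the 543rd nearest gene to KRT8, and KRT8 the 214th nearest to KRT18. KRT7 and KRT19 were too low to be included.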

How the data were processed

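RNA of T24 and UM-UC-3 cells was measured in 4 libraries. The authors deposited FPKM values, 1 table per library, made with bcl2fastq 2.19.1, HISAT2 2.1.0 and HTSeq 0.6.1 per the submitters' processing notes, which name build hg19; the strand setting is not given in the sources used here. The paper gives 150-base paired-end reads, Ensembl references and DEGseq. The sample number of 4 in its methods does not say whether all libraries or those per condition are meant; 1 per line and condition was analysed here. Multiplied by GENCODE 29 merged exon lengths and 1 total per library, 29029 of 31319 genes (92.7%) gave whole reads in all 4 libraries (tolerance 1e-06). GENCODE 29 annotates GRCh38, so positions and sequences come from that annotation and not from the files. No other column of values was left out (0).

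Within a line the rule of size was used (pseudocount 0.5, fold of at least 2, at least 1 FPKM). Over both lines, limma 3.58.1 (R 4.3.3; lmFit, then eBayes with trend) modelled treatment beside the cell line for genes of at least 1 FPKM in at least 2 libraries, with Benjamini-Hochberg adjustment at 0.05. The cell line given in the labels pairs each treated library with its control. Intervals on worked-back reads were exact Poisson, or Clopper-Pearson for ratios, at 95%. The limma fit and the rule were tested on simulated data. Python 3.11.15, numpy 2.4.6, pandas 2.3.3, scipy 1.17.1 and matplotlib 3.10.9 were used.

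The members and gene lists were chosen with earlier results of these data known. Named are all members; of each list the up to 6 most abundant genes at 1 FPKM, those called alike in both lines and the largest change per line; and the genes nearest in pattern. PKP3, RARA, RARG, SNAI1, FN1 and CDH2, called in 1 line, are named after their values were seen. Coding sequences of the main transcripts were aligned globally with Biopython. Alternatives were other pseudocounts, scalings, FPKM minimums and folds, pseudogenes summed with their parents, and limma without the cell line, without the trend or with voom. Some coding sequences are not reported here.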

Additional observations from a re-analysis of the deposited data

Results flagged for a closer look

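Among 147 genes of the members and lists, 4 had ratios on opposite sides of 1 in the lines, with both counting intervals clear of 1 and the change in at least 1 line of the size of a call. Cell type markers on no other list, such as FN1, were not examined in this way. Each line has 1 library per condition, so the differences between the lines were not tested. The log2 fold change (OICR-9429 over DMSO) of VIM was 0.99 in T24 cells and -1.20 in UM-UC-3 cells. That of RARA, a retinoic acid receptor, was 1.21 in T24 cells and -0.35 in UM-UC-3 cells. That of SNAI1, a repressor of epithelial genes, was 0.83 in T24 cells and -1.22 in UM-UC-3 cells. That of KRT8P33, a KRT8 pseudogene, was -0.56 in T24 cells and 1.36 in UM-UC-3 cells. None of the 10 keratin genes was among them.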

How the results depend on the processing

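All settings kept the direction of KRT7, KRT8, KRT18, KRT80 and KRT81 in each line. Of 100 alternatives for single members, 77 were labelled the same, 23 moved and 0 changed the sign of a called value. The same meant a value inside the counting interval of the FPKM ratio without a pseudocount, or a very small shift. Members with 0 reads in both libraries of a line were also labelled the same, so that their alternatives could not move. The label does not measure how far a value moved: KRT81 in UM-UC-3 went from -1.37 to -2.65 with a pseudocount of 0.1 and counted as the same. KRT17 in UM-UC-3, not called, had a log2 fold change of 0.03 on its own and -0.43 with pseudogenes summed. At a fold of at least 4, 1 member was called in T24 and 1 in UM-UC-3, in each case KRT80. With a minimum of 5 FPKM KRT7 was not called in T24 (2 members called), and with no minimum KRT81 was called in UM-UC-3 as well (4 members). TMM scaling took the log2 fold change of KRT18 in T24 to -0.25 and that of KRT80 in UM-UC-3 to -2.77. With it the share of lower ones among all calls was 53.7% in T24 (66.1% as deposited) and 57.2% in UM-UC-3 (46.4% as deposited).

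The limma result over both lines rests on the pairing of the libraries by cell line and on the genes tested. Without the replicate block, 0 members passed (1 at an unadjusted p under 0.05), without a filter on low values 0 passed (2 at an unadjusted p under 0.05), and without a trend in eBayes 1, KRT80. Without the replicate block 0 of 12584 genes passed (1062 at an unadjusted p under 0.05), and without the filter 0 of 31319 (2932), so LAMB3, LMNB1, LMNB2 and KLF4 did not pass in these fits either. Over 10 alternatives the adjusted p of KRT8 was 0.0091 to 0.48 and passed in 7, that of KRT80 was 0.0033 to 0.78 and passed in 8, and that of KRT18 was 0.10 to 0.80 and passed in 0. With 1 library per line and condition, leaving out a replicate was not possible. The levels of KRT5, KRT14, KRT17, KRT19 and KRT20 rest on 0 to 14 reads.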
